A study of Drosophila melanogaster with 4 samples.

Results

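The mRNAs of 6 maternal genes were followed in ovaries of Drosophila melanogaster: oskar (osk), nanos (nos), polar granule component (pgc), germ cell-less (gcl), bicoid (bcd) and gurken (grk). They were chosen by name, as mRNAs that are laid down in the oocyte and needed for its axes or its germ plasm, and each symbol was mapped to its FlyBase identifier through the dm6 gene annotation. All 6 were found among the 17023 genes listed, and all 6 were among the 7085 genes with enough reads to be tested. The RNA came from 2 pulldowns with a pseudouridine antibody and from 2 inputs, taken from the ovary homogenate before the antibody was added. Every library was made from poly(A)-selected RNA of ovaries labeled as wild type (WT), and the labels give no age. The methods use the same abbreviation for UAS-Dcr2;nosGAL4 females elsewhere in the study. Whether the pulldown ovaries carried that driver, whose transgene includes nos sequence, is not stated. The libraries are numbered 1 and 3 in both groups, and pulldown 1 was set against input 1 and pulldown 3 against input 3. A mock pulldown with IgG was not analysed here, so mRNA held by the beads or the antibody without pseudouridine was not measured separately. Nothing states that the numbers mark separate sets of animals, so a spread between libraries may be technical.

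The axes of the fly embryo are set while the egg is still in the ovary. Nurse cells transcribe these mRNAs and pass them to the oocyte, where motors and anchoring proteins place them and repressors keep most of them silent until they reach their site. osk and nos collect at the posterior pole, bcd at the anterior pole and grk beside the oocyte nucleus, while pgc and gcl are carried into the germ cells that form at the posterior pole. Pseudouridine is made from uridine after transcription, is abundant in rRNA, tRNA and snRNA, and is also found in some mRNAs.

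The 4 libraries held 984979 reads in pulldown 1 and 6338436 in pulldown 3, against 4245717 in input 1 and 12684875 in input 3. A level of 3 counts, the limit that a count of 0 allows, was 3.05 CPM (counts scaled to the library total) in pulldown 1 and 0.473 CPM in pulldown 3, against 0.707 CPM in input 1 and 0.237 CPM in input 3. The tissue label was checked with marker lists. Of 8 germline markers listed, 7 were matched (vas was not). Of these, 5 had reads in pulldown 1 and 6 in pulldown 3, against 6 in input 1 and 7 in input 3, and bam and bgcn were at 0 in pulldown 1. The matched germline markers summed to 1443 CPM in pulldown 1 and 1515 CPM in pulldown 3, against 2624 CPM in input 1 and 2076 CPM in input 3. Of the 6 tested, 5 had an edgeR log2 fold change of pulldown over input below 0, beside 53.8% of all tested genes. In both pairs, 3 of the 6 were below their input, near the 40.7% of all tested genes that were. The 10 follicle cell markers, which include yolk and eggshell genes, had reads in every library. Their summed level was 240560 CPM in pulldown 1 and 29198 CPM in pulldown 3, against 89624 CPM in input 1 and 21207 CPM in input 3. Most of the sum in pulldown 1 came from Vm34Ca (107668 CPM) and Vm26Aa (65530 CPM). The 10 markers did not all move alike. Fas3 was below its input in both pairs, Cp36 in pair 1, and tj, Yp2, Yp3 and Cp38 in pair 3. The 5 muscle sheath markers that were matched, of 6 listed, summed to between 345.2 and 634.2 CPM, the 4 blood cell markers to at most 22.3 CPM, the 5 fat body markers to at most 3.05 CPM and the 4 testis markers to at most 0.707 CPM. The part of the follicle cell share in the results below was not tested. In whole ovaries, fewer cells of a type and less RNA per cell cannot be told apart.

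The stretches of these mRNAs that the work on them has turned on are shown first, as RNA letters read from the RefSeq annotation of dm6, 5′ to 3′. All 6 genes matched a RefSeq mRNA, as did 6814 of the 7085 tested genes (96.2%), and the longest mRNA of each gene was used. In nos, the word CUGGC after the stop codon is the loop of the elements bound by Smaug, the repressor that silences nos away from the pole. The mRNA of nos holds 2 of them, 32 and 132 bases after the stop codon, at chr3R:19159342-19159370 and chr3R:19159442-19159470 on the plus strand, and the capitals mark the word.
nos, first CUGGC: ggagcagaggcuCUGGCagcuuuugcagc
nos, second CUGGC: uuuaaauagcgcCUGGCgcguucgauuuu
osk also holds 2 copies, 45 and 851 bases after the stop codon, at chr3R:8937400-8937428 and chr3R:8938206-8938234 on the plus strand.
osk, first CUGGC: auuuugacugggCUGGCaccggaaccgac
osk, second CUGGC: caguguagaauuCUGGCguaauuuacagc
Of the tested genes with a RefSeq mRNA, 20.2% had at least 1 CUGGC after the stop codon. Among the 675 genes whose sequence after the stop codon was within 20% of the length in nos (880 bases), 6.37% had at least 2, and among the 604 within 20% of osk (1028 bases), 8.94% had at least 2. The other 4 mRNAs had 0. The word was searched on the mRNA strand only, and a match is a description of the letters, not a measured binding site.

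The Pumilio word UGUANAUA occurred once, in bcd, whose mRNA carries elements of the kind that Pumilio and Nanos bind in hb. It lay 82 bases after the stop codon, at chr3R:6756577-6756604 on the minus strand, and the capitals mark it.
bcd, UGUANAUA: accaagugauUGUAGAUAucuacgcgua
Of the 704 genes with a like length after the stop codon, 30.1% had at least 1 such word. The study's own subject was translation of mRNAs with CAG repeats, and 2 of the 6 mRNAs code for runs of at least 5 glutamines, written with CAG and CAA codons (capitals).
bcd, 6 glutamine codons, chr3R:6757776-6757853, minus strand: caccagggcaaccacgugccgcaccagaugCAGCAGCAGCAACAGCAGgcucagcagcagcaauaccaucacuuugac
nos, 5 glutamine codons, chr3R:19157801-19157875, plus strand: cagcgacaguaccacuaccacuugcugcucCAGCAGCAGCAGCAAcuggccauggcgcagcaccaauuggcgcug
A run of at least 5 was coded by 9.08% of the tested genes, and by 3.39% of the 1473 genes with a coding length within 20% of bcd and 3.18% of the 1479 within 20% of nos. The longest stretch of CAG codons alone was 4 in bcd and 4 in nos, 3 in grk, 2 in osk and gcl and 1 in pgc, so none of the 6 reached 5, which 4.58% of the tested genes did.

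The words read by known pseudouridine synthases were counted in the whole mRNA, on the mRNA strand, with overlapping matches counted separately. In yeast, Pus7 modifies a uridine of UNUAA and UNUAG, and Pus4 modifies the GUUCNANNC word, the form found in tRNA. GUUCNANNC occurred once in grk and once in gcl and was at 0 in the other 4 mRNAs, where 39.1% of the tested genes had at least 1. In grk the word is in coding sequence. The stretch printed here, with 10 bases on each side, runs over an exon junction. It lies between positions 8432470 and 8433016 of 2L on the minus strand, and the capitals mark the word.
grk, GUUCNANNC: acagauuguuGUUCGAGCCgaaucuuacu
Of the 1515 genes with an mRNA within 20% of the length of grk (1718 bases), 31.7% had at least 1. UNUAA and UNUAG together occurred 9.89 times per kb in grk, 8.51 in nos, 7.18 in gcl, 6.97 in osk, 6.61 in pgc and 4.73 in bcd, beside a median of 5.61 per kb over the tested genes. Uridine made up 27.3% of the grk mRNA, 26.9% of pgc, 26.4% of osk, 26.1% of nos, 24.8% of gcl and 22.7% of bcd, beside a median of 23.1%. Thus bcd was the one member below the median in both measures, and grk was the highest of the 6 in both.

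osk encodes Oskar, the protein that starts the assembly of the germ plasm at the posterior pole, and it had the highest level of the 6 mRNAs per kb of exon in both groups, with pgc close to it. It had 796 reads in pulldown 1 and 9060 in pulldown 3, against 4414 in input 1 and 23182 in input 3. This was 808.1 and 1429 CPM in pulldowns 1 and 3, against 1040 and 1828 CPM in inputs 1 and 3. The groups overlapped, and libraries numbered 3 stood above those numbered 1 in both groups by a like factor (1.77 between the pulldowns and 1.76 between the inputs). Within the pairs the CPM ratio of pulldown to input was 0.777 in pair 1 (exact 95% counting interval 0.720 to 0.838) and 0.782 in pair 3 (0.763 to 0.801). The ratio of osk was therefore below 1 in both pairs by nearly the same factor. These intervals cover counting error in the 2 libraries of a pair only, as do all those below. On library sizes scaled by TMM (a trimmed mean of ratios between libraries), the log2 ratio of osk in pair 1 was 0.039, against -0.36 on library totals, so its sign there rests on the scaling. The edgeR fit over all 4 libraries gave osk a log2 fold change of -0.14 (SE 0.73, adjusted p = 0.9999). osk lies at 3R, 8935126 to 8938395, on the plus strand. It shares 162 of its 2869 exon bases with an antisense RNA gene, asRNA:CR44020, and reads there may belong to either. A further 2251 lie in lncRNA:osk on its own strand, which is not among the genes counted, so reads of either stand under osk.

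**Figure D1:**
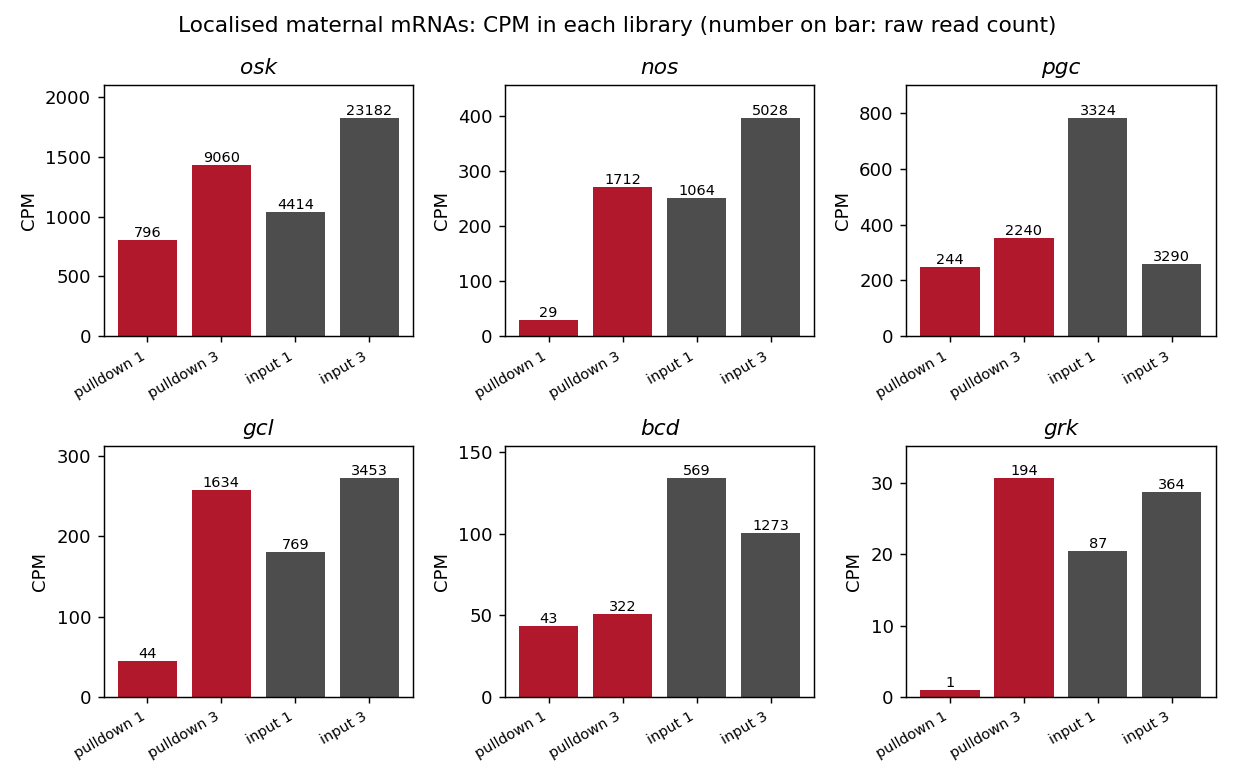
Level of each of the 6 mRNAs in CPM (y axis, linear, one scale per gene) in pulldown 1, pulldown 3, input 1 and input 3 (x axis), 1 bar per library with its raw read count on top. The pulldown bars of bcd are both below both of its input bars, and nos, gcl and grk are low in pulldown 1 (29, 44 and 1 reads) but not in pulldown 3.

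Of the other germ plasm mRNAs, nos and gcl were low in pulldown 1 alone, while pgc was high in input 1 alone. nos encodes Nanos, a translational repressor that specifies the abdomen and keeps germ cells from somatic fates. It had 29.4 and 270.1 CPM in pulldowns 1 and 3, against 250.6 and 396.4 CPM in inputs 1 and 3. Pulldown 1 was the low library, on 29 reads, and pulldown 3 lay between the inputs. The ratio was 0.117 in pair 1 (0.0783 to 0.170) and 0.681 in pair 3 (0.645 to 0.720), so nos was below its input in both pairs but by very different amounts. Its fitted log2 fold change was -1.12 (SE 0.82, edgeR adjusted p = 0.9999). nos lies at 3R, 19157238 to 19160202, plus strand, and shares 269 and 104 of its 2349 exon bases with the antisense genes CG11779 and Nsun5, so that reads there are uncertain.

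gcl encodes a protein of the nuclear envelope that germ cells need to form, and its pattern was close to that of nos. It had 44.7 and 257.8 CPM in pulldowns 1 and 3, against 181.1 and 272.2 CPM in inputs 1 and 3. Here too only pulldown 1 was low, while pulldown 3 was within the range of the inputs. The ratio was 0.247 in pair 1 (0.178 to 0.334) and 0.947 in pair 3 (0.892 to 1.00). The fit gave -0.55 (SE 0.72, edgeR adjusted p = 0.9999). gcl lies at 2R, 8724258 to 8728999, plus strand, and shares 36 of its 2509 exon bases with CG30356 on the other strand.

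pgc encodes a small protein that keeps transcription off in newly formed germ cells. It had 247.7 and 353.4 CPM in pulldowns 1 and 3, against 782.9 and 259.4 CPM in inputs 1 and 3. The odd library here was input 1, and both pulldowns stood close to input 3. The ratio was 0.316 in pair 1 (0.277 to 0.360) and 1.36 in pair 3 (1.29 to 1.44), on opposite sides of 1. The fit gave -0.70 (SE 0.78, edgeR adjusted p = 0.9999). pgc lies at 2R, 22330200 to 22332813, plus strand, and 569 of its 1212 exon bases are also exon of T3dh on the other strand. T3dh itself had 0 and 17 reads in pulldowns 1 and 3, against 6 and 58 in inputs 1 and 3, and the share of reads lost or gained in the overlap was not tested.

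Of the 6 mRNAs, the pulldowns differed least from each other in bcd (1.16-fold) and most in grk (30.1-fold), which both act in the axes. bcd encodes Bicoid, the anterior determinant, a transcription factor that spreads from the anterior pole after the egg is laid. It had 43 and 322 reads in pulldowns 1 and 3, against 569 and 1273 in inputs 1 and 3, or 43.7 and 50.8 CPM in pulldowns 1 and 3, against 134.0 and 100.4 CPM in inputs 1 and 3. Both pulldowns were below both inputs, and bcd was the one member whose groups did not overlap. Among all tested genes, 20.0% had both pulldowns below both inputs in CPM and 6.21% had both above, so 1 of 6 members was near the background. The ratio of bcd was 0.326 in pair 1 (0.233 to 0.444) and 0.506 in pair 3 (0.447 to 0.572). Its mean was 47.2 ± 5.05 CPM in the pulldowns and 117.2 ± 23.8 CPM in the inputs (SD, n = 2 each), and the fit gave a log2 fold change of -1.11 (SE 0.69, edgeR adjusted p = 0.9999, unadjusted p = 0.150). bcd lies at 3R, 6755842 to 6759466, minus strand, and shares no exon bases with another annotated gene.

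grk encodes Gurken, a ligand of the EGF receptor that signals from the oocyte to the follicle cells and sets both axes. It had the lowest level per kb of exon of the 6, with 1 and 194 reads in pulldowns 1 and 3, against 87 and 364 in inputs 1 and 3. In CPM this was 1.02 and 30.6 in pulldowns 1 and 3, against 20.5 and 28.7 in inputs 1 and 3. The single read in pulldown 1 was below the level of 3 counts, whereas pulldown 3 was the highest library of the 4. The ratio was 0.0495 in pair 1 (0.00124 to 0.283) and 1.07 in pair 3 (0.891 to 1.27), an interval that holds 1. The fit gave -0.67 (SE 1.45, edgeR adjusted p = 0.9999). grk lies at 2L, 8431086 to 8433598, minus strand. It shares 212 of its 1718 exon bases with Akap200 on the other strand, a gene with 695 and 1531 reads in pulldowns 1 and 3, against 3960 and 6066 in inputs 1 and 3, so the counts of grk are uncertain there.

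Across the 6 genes, none was called in the pulldown against the input by edgeR's quasi-likelihood test, where a call needed 2-fold or more and an adjusted p below 0.05. The share of all tested genes called was 0.0% as well, 0 of 7085, with 146 at an unadjusted p below 0.05 and 2 called by DESeq2. At an unadjusted p below 0.05, 1.93% of the tested genes were lower in the pulldown, and 0 of the 6 members were. With the replicate number as a block, 3.22% of the tested genes were lower at that threshold, and 1 of the 6 members was, nos, with a log2 fold change of -1.53 (SE 0.55, edgeR unadjusted p = 0.0239, adjusted p = 0.9999). All 6 fitted log2 fold changes were below 0, between -1.12 in nos and -0.14 in osk, with a median of -0.68, beside a median of -0.07 and 53.8% below 0 over all tested genes. The standard errors, from 0.69 to 1.45, were larger than the values for 4 of the 6, the exceptions being bcd and nos.

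The 2 pairs differed. In pair 1, 5 of the 6 were at least 2-fold lower in the pulldown (all but osk), beside 42.8% of all tested genes. In pair 3, 0 of the 6 were, beside 14.8% of the tested genes, although bcd was just short of that limit at 1.98-fold lower. No member was at least 2-fold lower in both pairs, which 7.81% of the tested genes were, and none was at least 2-fold higher in both, which 0.974% were. osk, bcd, nos and gcl were below their input in both pairs, 4 of 6 beside 40.7% of the tested genes. On TMM-scaled library sizes, a setting chosen for this count after seeing the data, osk left that group, giving 3 of 6 beside 33.1% of the tested genes. The median log2 ratio, on library totals with a prior count of 2, was -1.84 over the members and -0.70 over all tested genes in pair 1, and -0.22 over the members and -0.12 over all tested genes in pair 3. Ranked among the 7085 tested genes, bcd was above 31.1% of them in pair 1 and 15.4% in pair 3, and nos above 16.8% and 28.9%. osk stood above 59.2% and 37.8%, gcl above 25.5% and 52.2%, pgc above 30.1% and 77.7%, and grk above 11.7% and 61.4%. By rank, bcd and nos were the members below the median of the tested genes in both pairs.

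**Figure D2:**
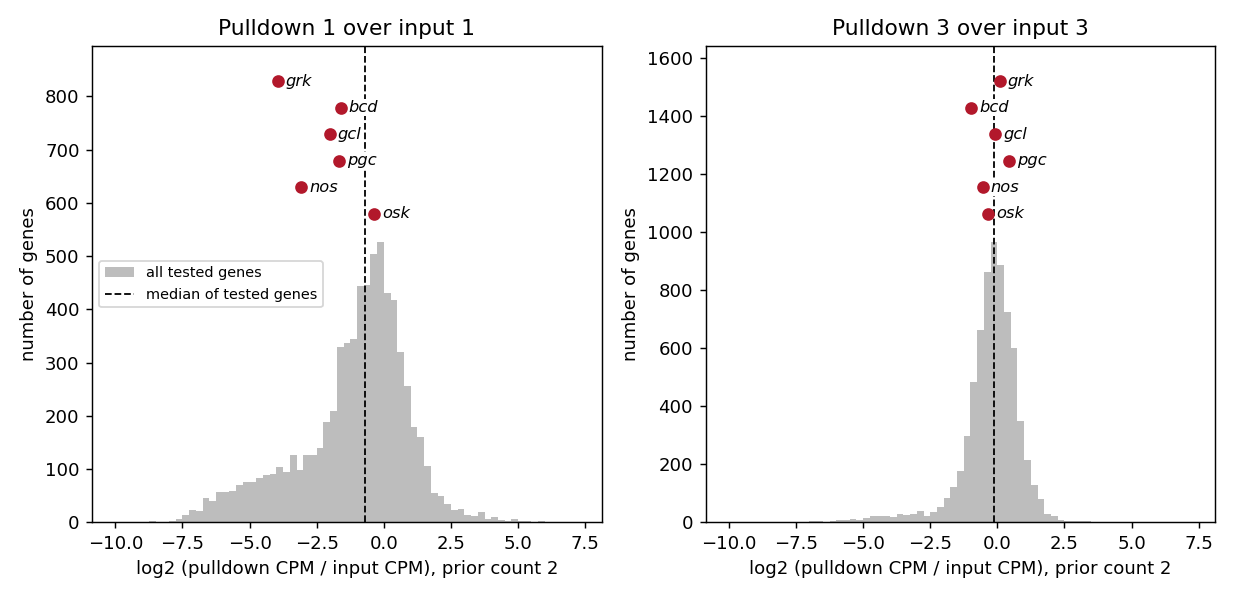
Log2 ratio of pulldown CPM to input CPM (x axis) in pair 1 (left) and pair 3 (right), with the number of tested genes per bin of 0.25 as gray bars (y axis), their median as a dashed line and the 6 mRNAs as red points set above the bars at arbitrary heights. The points span -3.95 to -0.36 in pair 1 and -0.98 to 0.45 in pair 3.

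The reads on the 6 genes together made up 0.117% of pulldown 1 (Wilson 95% interval 0.111 to 0.124) and 0.239% of pulldown 3 (0.235 to 0.243), against 0.241% of input 1 (0.236 to 0.246) and 0.288% of input 3 (0.286 to 0.291). The pulldown share was thus below the input share in both pairs, at 0.488 of it in pair 1 and 0.829 of it in pair 3. On the same library totals, most tested genes were below their input too, 69.8% of them in pair 1 and 56.8% in pair 3. Pulldown 1 also had the most uneven reads of the 4 libraries, with 33.1% on its 10 most abundant genes, and 6.70% in pulldown 3, against 13.5% in input 1 and 6.34% in input 3. With the 10 most abundant genes of each library left out of its total, the share was 0.175% in pulldown 1 and 0.256% in pulldown 3, against 0.278% in input 1 and 0.308% in input 3.

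The make-up of those reads was not stable. osk took 68.8% of the reads on the 6 genes in pulldown 1 (66.1 to 71.4) and 59.8% in pulldown 3 (59.0 to 60.5), against 43.2% in input 1 (42.2 to 44.1) and 63.4% in input 3 (62.9 to 63.8). Its share was higher than the input in pair 1 and lower in pair 3. pgc took 21.1% in pulldown 1 and 14.8% in pulldown 3, against 32.5% in input 1 and 8.99% in input 3. nos took 2.51% in pulldown 1 and 11.3% in pulldown 3, against 10.4% in input 1 and 13.7% in input 3. For bcd the share was 3.72% in pulldown 1 and 2.12% in pulldown 3, against 5.56% in input 1 and 3.48% in input 3, lower than the input in both pairs. nos was the other gene whose share was lower in both pairs.

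**Figure D3:**
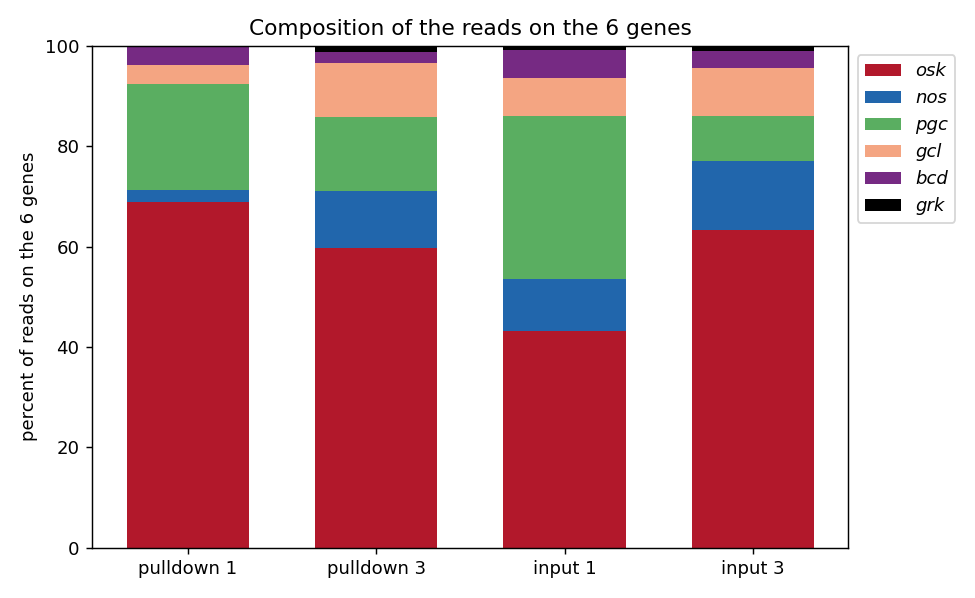
Percent of the reads on the 6 genes (y axis) that fell on each gene, stacked, in pulldown 1, pulldown 3, input 1 and input 3 (x axis). osk fills 68.8% and 59.8% of the pulldown bars, against 43.2% and 63.4% of the input bars.

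Levels were compared between genes per kb of exon, in CPM per kb. In the pulldowns the means were 389.9 ± 153.1 for osk, 248.0 ± 61.7 for pgc, 63.8 ± 72.4 for nos, 60.3 ± 60.1 for gcl, 18.6 ± 1.99 for bcd and 9.20 ± 12.2 for grk (SD, n = 2). In the inputs they were 499.7 ± 194.2 for osk, 430.0 ± 305.4 for pgc, 137.7 ± 43.9 for nos, 90.3 ± 25.7 for gcl, 46.2 ± 9.39 for bcd and 14.3 ± 3.38 for grk (SD, n = 2). The order was the same in both groups. Among neighbors in that order, osk and pgc overlapped in both groups, and so did nos and gcl, while pgc and nos did not overlap in either. gcl and bcd, and bcd and grk, overlapped in the pulldowns but not in the inputs. With exon bases shared with other listed genes left out of the length, a setting chosen after seeing the data, pgc stood above osk in both groups, at 467.4 against 413.3 CPM per kb in the pulldowns and 810.5 against 529.6 CPM per kb in the inputs. Only the length was changed in this setting. Any reads in the shared bases stayed in the counts and would raise these levels, so the order of osk and pgc is not settled. By CPM per kb osk ranked 258 and 156 among 16647 annotated genes in pulldowns 1 and 3, against 216 and 133 in inputs 1 and 3. grk ranked 5744 and 4071 in pulldowns 1 and 3, against 4240 and 4640 in inputs 1 and 3.

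For each member, the genes with the most similar pattern were found by the root mean square difference of log2 CPM over the 4 libraries, after centering each gene on its own mean, among the 6014 other genes that averaged 10 CPM or more. They were Hrd3 (0.05) and CG10413 (0.05) for osk, Pkn (0.06) and Zif (0.08) for nos, and CG45071 (0.06) and CG14561 (0.07) for pgc. For gcl they were cyp33 (0.03) and CG17683 (0.08), for bcd babo (0.03) and Lst8 (0.03), and for grk CG2187 (0.07) and vtd (0.08). The nearest of these, babo, a receptor of the activin pathway, had 75.1 and 89.3 CPM in pulldowns 1 and 3, against 237.2 and 181.6 CPM in inputs 1 and 3. Between the members, the smallest differences were 0.45 between nos and gcl and 0.48 between nos and grk, and the largest was 1.73 between grk and pgc. The members thus did not share a single pattern over the 4 libraries, and 4 points describe a pattern only loosely.

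The genes around these mRNAs were read from 4 lists, none of whose genes was called by edgeR. The counts below 0 in each list stand beside 53.8% of all tested genes below 0, with a median of -0.07. Of 15 genes for germ plasm assembly, 14 were matched and tested, and 8 of them had a log2 fold change below 0, with a median of -0.42. The lowest were mago (-1.75, SE 1.4) and spir (-0.71, SE 0.77), and the highest Khc (0.77, SE 0.70) and capu (0.68, SE 0.91). mago encodes a subunit of the exon junction complex that osk mRNA needs to reach the posterior pole, and it had 0 and 253 reads in pulldowns 1 and 3, against 241 and 934 in inputs 1 and 3. Khc, the heavy chain of the motor kinesin that carries osk mRNA, had 378.7 and 230.2 CPM in pulldowns 1 and 3, against 162.3 and 312.6 CPM in inputs 1 and 3. Its pairs point in opposite directions. spir and capu encode actin nucleators that act together in the oocyte.

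Of 10 other mRNAs that are localized to or enriched in the oocyte or made for its polarity, all were tested, and 9 had a log2 fold change below 0, with a median of -0.53. On library totals, 10 of the 10 were below their input in both pairs, and on TMM-scaled sizes 6 of the 10 were, since orb, fs(1)K10, hts and Hsp83 were then above 0 in pair 1. The same count was 7 of 14 for germ plasm assembly (5 on TMM-scaled sizes), 6 of 13 for translational control (6) and 6 of 21 for the other maternal axis genes (5), beside 40.7% of the tested genes (33.1%). egl, which links localized mRNAs to the dynein motor, had the lowest fold change (-1.19, SE 0.90), with 9.14 and 90.2 CPM in pulldowns 1 and 3, against 69.5 and 164.4 CPM in inputs 1 and 3. CycB followed at -0.97 (SE 0.95). The highest were fs(1)K10 (0.21, SE 0.64) and Hsp83 (-0.21, SE 0.92). fs(1)K10 is needed to place grk mRNA, and its level was nearly the same everywhere, at 101.5 and 100.2 CPM in pulldowns 1 and 3, against 103.4 and 106.2 CPM in inputs 1 and 3.

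Of 16 genes that control the translation of such mRNAs, 15 were matched and 13 tested, and 11 of these were below 0, with a median of -0.61. The other 2, cup and BicC, had 0 and 4 reads over the 4 libraries. Whether these counts reflect the mRNA level or the way reads were assigned to genes was not tested. Hrb27C, which binds osk and grk mRNA, was lowest (-1.09, SE 0.88), followed by smg, the gene of Smaug (-0.97, SE 0.79). Smaug's mRNA had 762.5 and 1179 CPM in pulldowns 1 and 3, against 2475 and 1732 CPM in inputs 1 and 3. The highest were png (1.57, SE 0.69) and tral (0.40, SE 0.94). png encodes a kinase that switches on maternal translation at egg activation, and its level was higher in the pulldown in both pairs. It had 158.4 and 124.6 CPM in pulldowns 1 and 3, against 65.2 and 50.3 CPM in inputs 1 and 3, so both pulldowns were above both inputs (edgeR unadjusted p = 0.0573, adjusted p = 0.9999). The same held for 6.21% of all tested genes, and png was named as the highest of its list. It was also the 1 gene of the 13 at least 2-fold higher in both pairs, as were 0.974% of all tested genes. In the other direction, 2 of the 13 were at least 2-fold lower in both pairs, beside 7.81% of all tested genes.

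Of 22 other maternal axis genes, mainly of the Toll, torso and Egfr pathways, 21 were matched and tested, and 10 of them were below 0, with a median of 0.03. The lowest were Tl (-2.19, SE 0.80) and spz (-1.54, SE 0.74), the receptor and the ligand of the pathway that sets the dorsoventral axis. Tl had 28.4 and 197.1 CPM in pulldowns 1 and 3, against 589.5 and 395.0 CPM in inputs 1 and 3, and spz had 27.4 and 33.9 CPM in pulldowns 1 and 3, against 120.4 and 81.6 CPM in inputs 1 and 3. Both had pulldowns below both inputs, as did 20.0% of all tested genes. Tl was the one gene of the 4 lists with an unadjusted p below 0.05 without the replicate block (edgeR unadjusted p = 0.0306, adjusted p = 0.9999). Among all tested genes, 1.93% were lower in the pulldown at that threshold, so without the block 1 gene over the 4 lists was near the background. With the replicate block, more list genes had an edgeR unadjusted p below 0.05 in either direction. They were 0 of 14 for germ plasm assembly, 2 of 10 oocyte mRNAs, 1 of 13 for translational control and 2 of 21 here. Over all tested genes, 293 of 7085 did so with the block. The highest were snk (1.98, SE 1.58), a protease upstream of spz, and rho (1.65, SE 1.60), a protease that releases EGF receptor ligands. snk rests on 3 reads in input 1, beside 8 in pulldown 1.

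**Figure D4:**
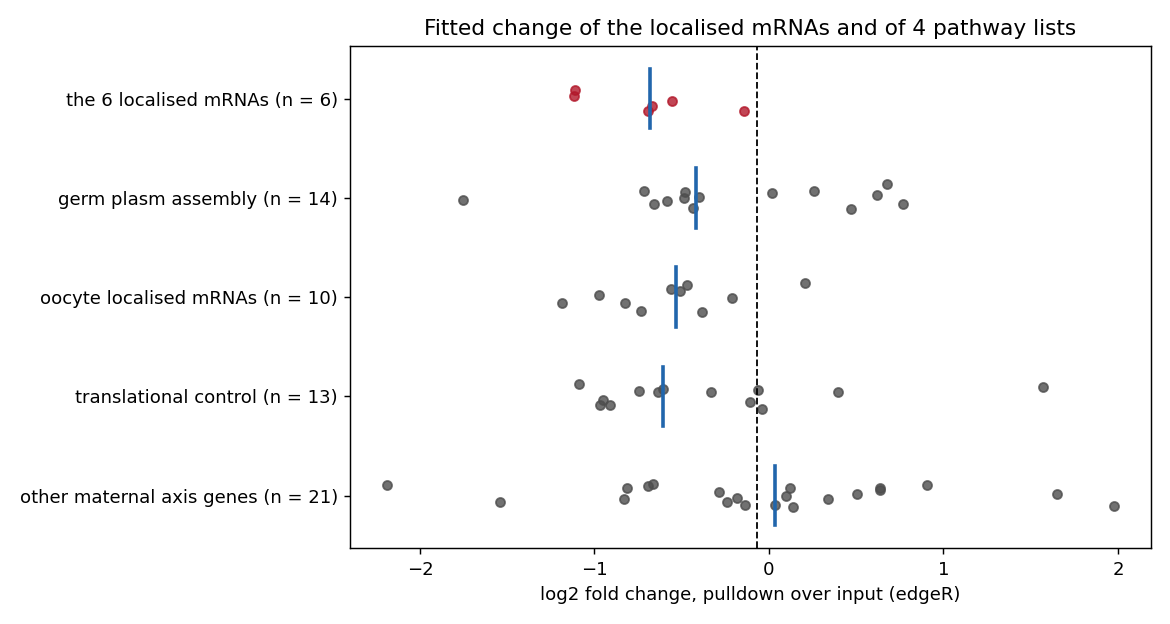
Log2 fold change of pulldown over input from the edgeR fit (x axis) for the 6 localized mRNAs (red) and for the tested genes of 4 lists (gray), 1 point per gene with random vertical scatter. Blue bars are the medians, at -0.68 for the 6 mRNAs and between -0.61 and 0.03 for the lists, and the dashed line is the median of all tested genes, at -0.07.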

How the data were processed

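Ovary RNA was poly(A)-selected and sequenced from 2 pseudouridine pulldowns and 2 inputs. The deposited values are raw counts for each FlyBase gene, made by the authors from single-end reads aligned to dm6. Their processing notes name HISAT2 2.1.0, featureCounts 1.4.6 and DESeq2 1.24.0. The library kit keeps strand, but the strand setting of the counting is not given in the sources used here. Of 17023 genes, 16647 (97.8%) matched Ensembl release 115, and nos was matched through a RefSeq synonym. Groups and numbers came from the sample titles. The methods take the input from the homogenate of the pulldown, so equal numbers were read as pairs, and, after subtracting group means, libraries with the same number correlated at r = 0.42 over the 7085 tested genes (2 pairs, so the numbers alone do not establish pairing).

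Counts were tested in R 4.3.3 with edgeR 4.0.16 (TMM, filterByExpr, group as the only term, quasi-likelihood test, two-sided, Benjamini-Hochberg over all tested genes), after a test on simulated data. CPM used library totals. Intervals of ratios are exact conditional binomial ones and cover counting error only. Reads carry no molecular identifiers. Alternatives were RLE and total-count scaling, no filter, a filter of 10 counts in each library, no fold threshold, the replicate block, DESeq2 1.42.0, a prior count of 0.5, totals without the 10 most abundant genes and leaving out each replicate (values only, 1 library a group). Sequences came from the RefSeq annotation of dm6. The named genes were the 6 members, for each the 2 most similar genes, and in each list the 2 tested genes with the highest and the 2 with the lowest fold change. The members and lists were chosen with earlier results of these data known.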

Additional observations from a re-analysis of the deposited data

How the results depend on the processing

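No member was called under any alternative run. The number of genes called in the pulldown against the input was 0, and it became 2 without the filter on low counts (bru3 and AstA-R1, both higher) and 2 with DESeq2 (bru3 higher and Flo2 lower). It stayed at 0 under the other scalings, with at least 10 counts in every library, without a fold threshold and with the replicate block, which gave 293 genes with an unadjusted p below 0.05, against 146 without it. With the replicate block the log2 fold changes were -0.13 in osk, -1.48 in grk, -1.07 in bcd, -1.53 in nos, -0.37 in pgc and -0.79 in gcl, and the pairing changed no call at the adjusted threshold, while nos alone of the members passed an unadjusted p of 0.05. All 35 fold changes recomputed with the 4 libraries kept their sign. grk could not be tested with at least 10 counts in every library, since pulldown 1 held 1 read. Of 12 log2 values with 1 replicate left out, 3 changed sign. Without replicate 1 and without replicate 3, osk was at -0.30 and 0.039, grk at 0.15 and -3.69, and pgc at 0.50 and -1.26. Of 36 recomputed pair ratios, 2 changed sign, both of osk in pair 1, to 0.039 on TMM-scaled sizes and to 0.0069 on totals without the 10 most abundant genes. Shares of reads on the members, pulldown over input, were 0.674 with both replicates and between 0.488 and 0.829 with 1 left out. Depth limits grk and nos most, at 1 and 29 reads in pulldown 1.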
